A study of Mus musculus with 12 samples.

Results

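The expression of 9 receptors through which fat cells sense metabolites, lipid mediators and natriuretic peptides was examined in gonadal white adipose tissue (GWAT): Hcar1, Hcar2, Adora1, Ptger3, Ffar2, Ffar4, Sucnr1, Npr3 and Npr1. They were taken by symbol from the 55281 genes of the deposited count table, each symbol matched a single mouse gene, and all 9 passed the filter on low counts. Levels are given as CPM, counts scaled to the size of each library with TMM factors over all 12 libraries, and differences as log2 fold changes.

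Each of the 12 libraries was made from the RNA of whole GWAT pooled from 3 male mice of 22 to 24 weeks. HoipA-KO mice were Hoip fl/fl AdipoQ.Cre+, so that Hoip (Rnf31), the catalytic subunit of the linear ubiquitin ligase complex, was deleted in mature adipocytes by Cre under the Adiponectin promoter, and their WT controls were Hoip fl/fl AdipoQ.Cre-, carrying the same floxed alleles. From 6 weeks of age mice of each genotype received for 16 weeks either a control diet with 14% fat (CD) or a high-fat diet with 60% fat (HFD), giving 4 groups of 3 pools. The design asks how the receptors differ between genotypes on each diet and between diets in each genotype. Library totals ranged from 30513500 to 60540260 counts.

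Fat cells store triglyceride and release it by lipolysis, which rises when the second messengers cAMP or cGMP rise. Receptors coupled to inhibitory G proteins lower cAMP and so act as brakes on lipolysis, and many of them are activated by products of metabolism such as lactate, ketone bodies, adenosine, short-chain fatty acids or succinate. Natriuretic peptides act in the other direction through the cGMP-forming receptor Npr1, whereas Npr3 removes these peptides from the extracellular fluid.

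Some libraries stood apart, and the receptor calls, and the list and marker calls between genotypes, were also made with all 12 libraries and without each library that held epididymal transcripts. The ratios, the correlations and the order of levels used all 12 libraries once. WT CD replicate 3 correlated with the other WT CD replicates at r = 0.785 and 0.794 over 18074 genes (log2 CPM), and WT CD replicates 1 and 2 correlated with each other at 0.907, whereas replicates of the other 3 groups correlated at 0.971 or more. WT CD replicate 3 was left out of the authors' own deposited comparisons and of the fit used here, which therefore held 11 libraries, and was added back as an alternative. WT CD replicate 2 held 18951 CPM of 8 epididymal epithelium markers, led by Crisp1 at 12345 CPM, and HoipA-KO HFD replicate 1 held 1579 CPM, against at most 94.8 CPM in each of the other 10 libraries. The epididymis adjoins gonadal fat in male mice, and the part of these transcripts in the receptor results was not tested beyond leaving out each library.

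The summed level of 10 adipocyte markers was 52877, 22360 and 15971 CPM in WT CD replicates 1, 2 and 3 and 32537 to 39738 CPM in WT HFD, against 14850 to 15535 CPM in HoipA-KO CD and 12712 to 15174 CPM in HoipA-KO HFD. Every HoipA-KO library was thus below every WT library, none of the 10 markers was at 0 in any library, and Lpl, which macrophages also express, was the most abundant of them. The summed level of 9 macrophage markers ran the other way, at 413 to 617 CPM in WT mice on CD and 1795 to 5288 CPM on HFD, against 8677 to 12479 CPM in HoipA-KO mice on CD and 6453 to 10735 CPM on HFD. In RNA of whole tissue, fewer adipocytes and less receptor RNA per adipocyte cannot be told apart. Rnf31 itself was 12.6 to 20.7 CPM in WT libraries on CD and 17.9 to 19.8 CPM on HFD, and 17.9 to 21.7 CPM in HoipA-KO libraries on CD and 19.1 to 22.5 CPM on HFD, with log2 differences between genotypes of -0.08 (SE 0.14, adjusted p = 0.654) on CD and 0.13 (SE 0.12, adjusted p = 0.491) on HFD. Other cell types of the tissue express Rnf31 and the exons counted are not separated in the table, so this level does not check the deletion.

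**Figure D1:**
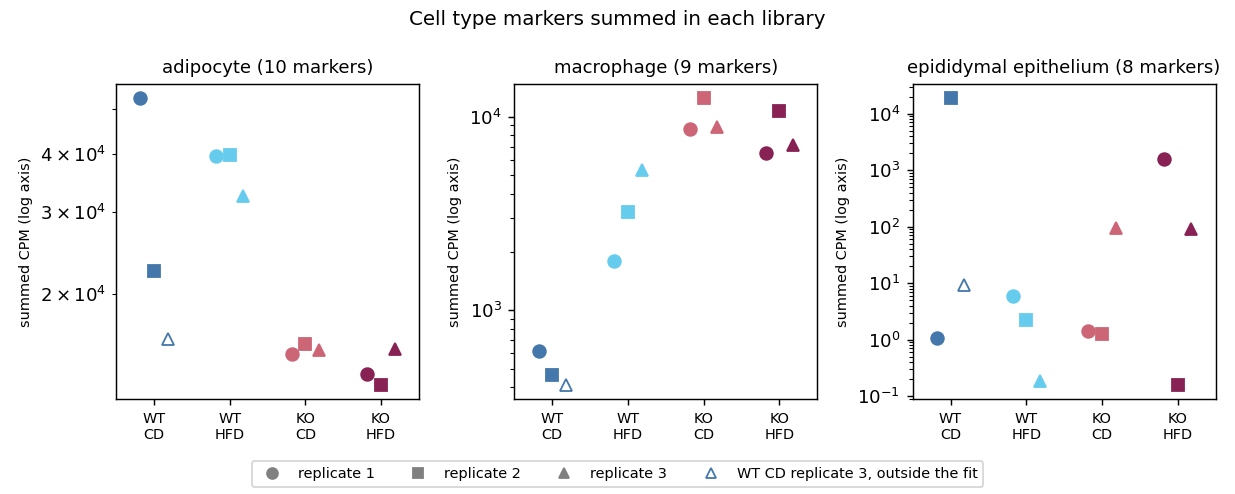
Summed CPM (log axis) of adipocyte, macrophage and epididymal epithelium markers in each of the 12 libraries, by group, with marker shape giving the replicate. Adipocyte markers were lower in all 6 HoipA-KO libraries than in any WT library, and WT CD replicate 2 held the most epididymal transcripts.

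In HoipA-KO mice 8 of the 9 receptors were lower than in WT on each diet, and Npr1 was the exception on both. On CD the 8 receptors fell to between 17.7% and 36.7% of WT, where 18.8% of the 18427 genes tested were called lower. On HFD the same 8 receptors fell to between 17.6% and 29.5% of WT, where 7.62% of genes were called lower. Calls were made at an adjusted p of 0.05 with the quasi-likelihood test of edgeR, adjusted by Benjamini-Hochberg across every gene tested, with the 95% intervals shown in the plot of fold changes. The median log2 fold change of the 9 receptors was -1.75 on CD and -2.08 on HFD, beside medians of -0.06 and 0.06 over all genes tested. In each of these comparisons the 8 receptors were also lower in every HoipA-KO library than in every WT library of the fit, which held for 25.7% of all genes on CD and 22.7% on HFD. The CD and HFD comparisons share no library, but both are scored with the same estimate of spread.

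For Ptger3, Ffar2, Sucnr1 and Npr3 the size of the CD difference depended on WT CD replicate 1, which held the highest adipocyte marker level. With each library left out in turn, Adora1 stayed between -2.61 and -2.15 on CD and Ffar4 between -2.80 and -2.27. With WT CD replicate 3 added, 5 of the 9 receptors were called lower on CD (Hcar1, Adora1, Ffar4, Sucnr1 and Npr3), and without WT CD replicate 1 only Hcar1, Adora1, Ffar4 and Sucnr1 were, where 19.1% and 20.2% of all genes were called lower. Over all 12 libraries Hcar1, Ptger3, Ffar4, Sucnr1 and Npr3 were called lower on HFD, and leaving out WT HFD replicate 1 or WT HFD replicate 2 left Hcar1, Ffar4 and Sucnr1. Calls over all genes also dropped in these settings, from 7.62% called lower to 2.25% with 12 libraries and 1.3% and 1.6% without these replicates, while the log2 fold changes of Hcar2, for example, were -2.10, -2.27 and -1.78, against -2.08 over the 11 libraries. Without HoipA-KO HFD replicate 2, 4 receptors were called on HFD (Hcar1, Hcar2, Ffar4 and Sucnr1), and without replicate 3 there were 5 (those 4 and Ffar2), where 1.35% and 2.42% of all genes were called lower. Leaving out HoipA-KO CD replicate 1 or 2 gave 5 calls on CD, with 12.1% and 12.5% of all genes called lower. In each of these cases the 8 receptors kept negative log2 fold changes.

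**Figure D2:**
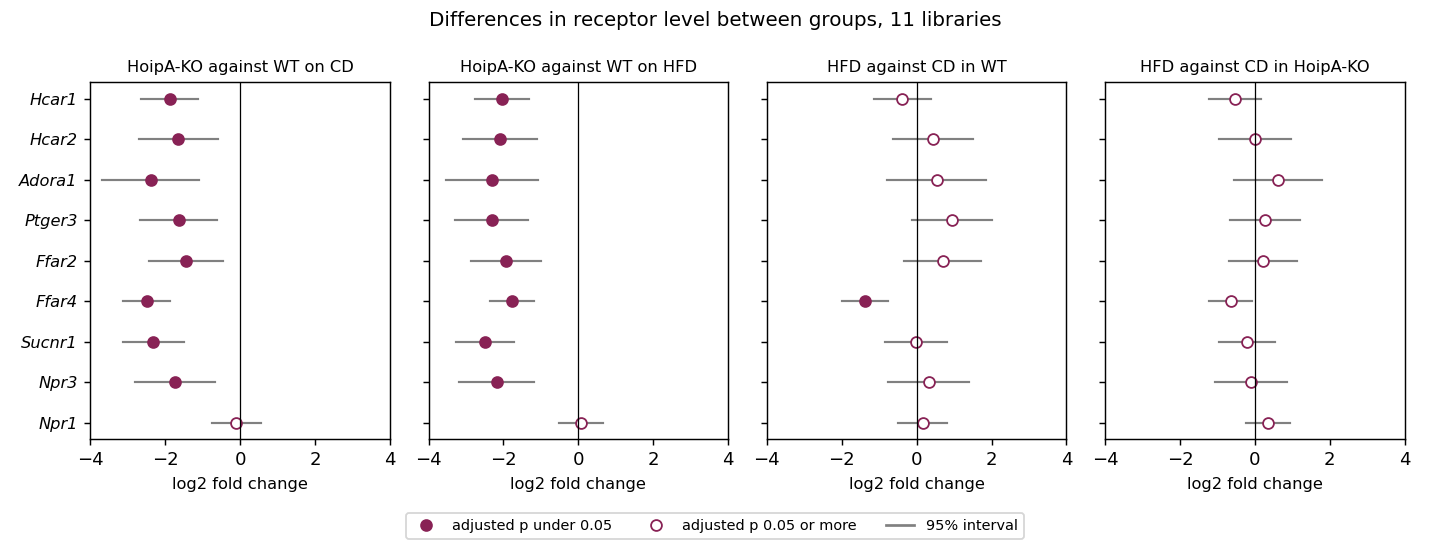
Log2 fold change of the 9 receptors in 4 comparisons over 11 libraries, with points for the estimate (filled where the adjusted p is under 0.05) and lines for the 95% interval. In both genotype comparisons 8 receptors lie below 0 and Npr1 lies near 0, and Ffar4 is the only receptor called between diets.

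The 4 receptors called lower on CD under all 21 alternative settings were Hcar1, Adora1, Ffar4 and Sucnr1, and the 250 bases before their RefSeq start sites (build GRCm38.p6) are shown because these genes were lower together. Adora1 has 2 start sites in the table, and only the window with a match is printed. The strings searched were AGGTCA, a hexamer bound by nuclear receptors such as the adipocyte factor PPARG, 2 such hexamers with 1 base between them, TTGCGCAA of C/EBP factors and GGAAGTG, a core of ETS factors such as PU.1, each on both strands over 300-base windows. Capitals mark GGAAGTG or its reverse complement, and each sequence runs 5′ to 3′ on the strand of the gene.
Hcar1, chr5:123880004-123880253, minus strand: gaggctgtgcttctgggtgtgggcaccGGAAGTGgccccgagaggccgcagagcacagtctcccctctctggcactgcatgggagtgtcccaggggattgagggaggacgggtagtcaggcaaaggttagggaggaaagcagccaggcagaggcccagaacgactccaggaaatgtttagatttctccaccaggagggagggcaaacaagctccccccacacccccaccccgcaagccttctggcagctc
Adora1, chr1:134235458-134235707, minus strand: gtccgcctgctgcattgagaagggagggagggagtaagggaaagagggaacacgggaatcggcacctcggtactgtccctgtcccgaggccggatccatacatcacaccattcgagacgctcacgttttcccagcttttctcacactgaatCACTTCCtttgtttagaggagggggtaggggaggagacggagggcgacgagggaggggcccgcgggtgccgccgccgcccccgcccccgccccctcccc
Ffar4, chr19:38096829-38097078, plus strand: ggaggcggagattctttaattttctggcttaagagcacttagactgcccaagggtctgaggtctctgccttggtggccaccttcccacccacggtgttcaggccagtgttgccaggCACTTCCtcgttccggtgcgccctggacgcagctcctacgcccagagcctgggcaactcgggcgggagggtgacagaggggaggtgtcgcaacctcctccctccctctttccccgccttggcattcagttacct
Sucnr1, chr3:60081619-60081868, plus strand: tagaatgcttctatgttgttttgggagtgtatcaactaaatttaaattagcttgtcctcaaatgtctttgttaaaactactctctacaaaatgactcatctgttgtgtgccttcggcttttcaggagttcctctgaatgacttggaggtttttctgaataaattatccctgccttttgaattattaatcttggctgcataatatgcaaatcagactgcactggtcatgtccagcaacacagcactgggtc

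The 8 receptors with an entry (all but Hcar2) had 12 windows. GGAAGTG was present in 3 of them, 1 each of Hcar1, Adora1 and Ffar4, and in 11% of the 32851 windows of all genes, and the other window of Adora1 held none of the strings. AGGTCA was present in 3 of the 12 windows, all of Ffar2, of which 2 overlap and hold the same match, and in 16.3% of all windows, and neither the paired hexamers (0.0396% of windows) nor TTGCGCAA (0.183%) was found in a window of the 8 receptors. These matches describe the letters of the windows, and the window of Sucnr1 held none of the strings.

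**Figure D3:**
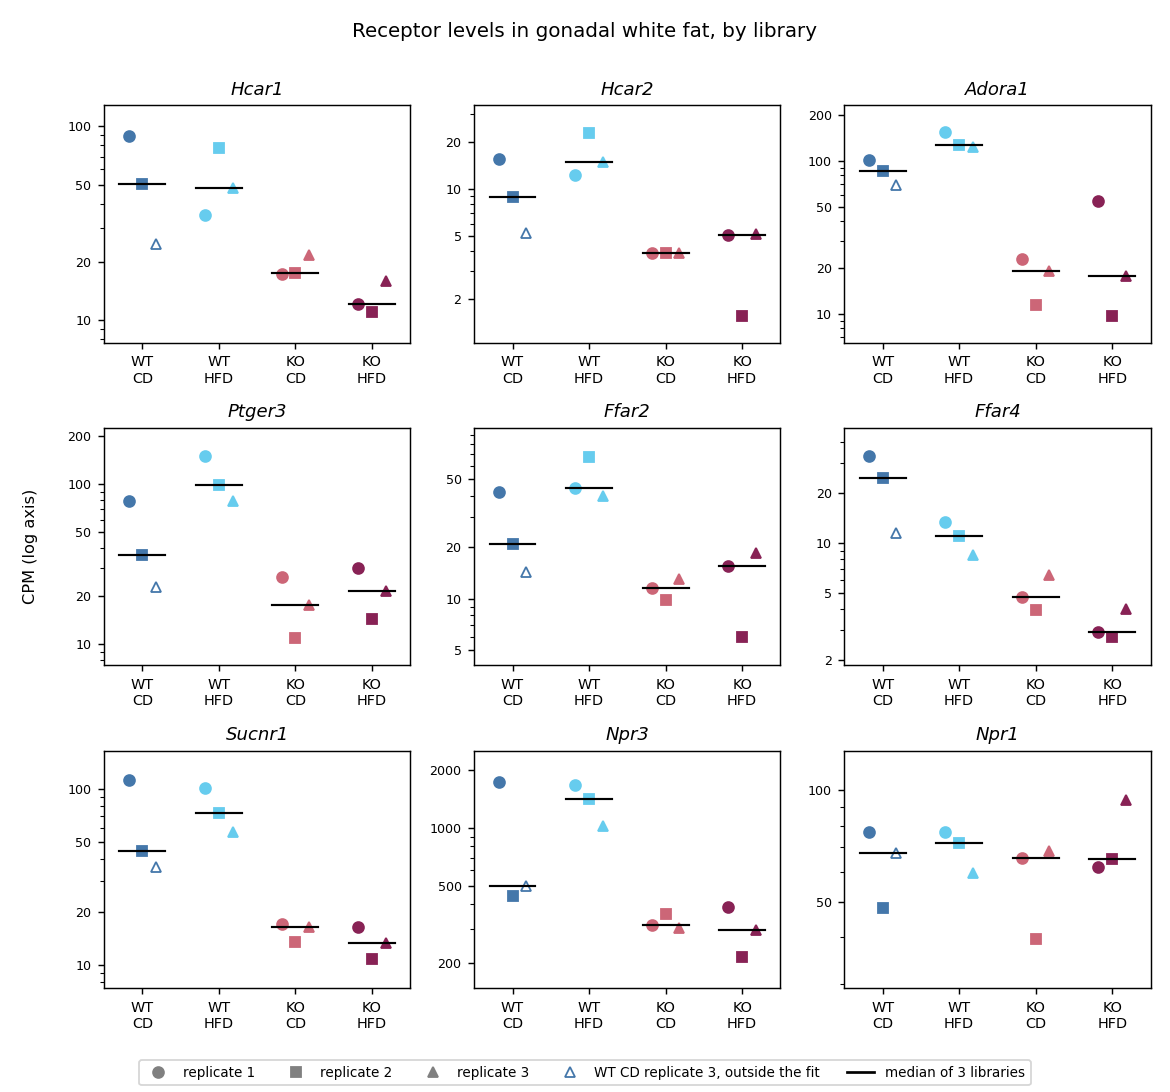
CPM (log axis) of the 9 receptors in each of the 12 libraries, with bars at the group median and an open symbol for WT CD replicate 3. For all receptors but Npr1 the HoipA-KO libraries lie low, and Npr1 overlaps in all 4 groups between 39.6 and 93.9 CPM.

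Hcar1 (ENSMUSG00000049241, GRCm38 chr5:123876736-123880020, minus strand) encodes the lactate receptor, through which lactate restrains lipolysis after feeding. It stood at 89.0, 50.7 and 24.6 CPM in WT CD replicates 1, 2 and 3, at 34.8, 77.5 and 48.3 CPM in WT HFD, at 17.4, 17.5 and 21.8 CPM in HoipA-KO CD and at 12.2, 11.04 and 15.9 CPM in HoipA-KO HFD. All 6 HoipA-KO libraries were below all 6 WT libraries. The log2 fold change was -1.88 on CD (SE 0.34, adjusted p = 0.00262) and -2.04 on HFD (SE 0.32, adjusted p = 0.00999), and it passed the threshold under all 21 alternative settings on each diet.

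Hcar2 (ENSMUSG00000045502, chr5:123863570-123865499, minus strand), a neighbour of Hcar1 that lies 11236 bases from it, encodes the receptor for the ketone body 3-hydroxybutyrate and for niacin and is also known from macrophages and neutrophils. It stood at 15.6, 8.91 and 5.23 CPM in WT CD, at 12.2, 22.9 and 14.8 CPM in WT HFD, at 3.90, 3.90 and 3.89 CPM in HoipA-KO CD and at 5.06, 1.55 and 5.15 CPM in HoipA-KO HFD. Again every HoipA-KO library was below every WT library, here by a narrow margin against WT CD replicate 3. Hcar2 fell by 1.65 on the log2 scale on CD (SE 0.47, adjusted p = 0.0212) and by 2.08 on HFD (SE 0.44, adjusted p = 0.0219). With all 12 libraries the adjusted p was 0.0557 and 0.0581.

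Of 11 genes for lactate and ketone body supply, 3 were called higher and 0 lower with CD, and with HFD 2 were higher and 1 was lower, where 18.9% of all genes were called higher and 18.8% lower on CD, and 4.2% higher and 7.62% lower on HFD. Slc16a3, the exporter of lactate in glycolytic cells, rose by 2.47 (SE 0.56) on CD and 1.67 (SE 0.47) on HFD on the log2 scale, and Bdh2, a cytosolic hydroxybutyrate dehydrogenase, by 1.45 (SE 0.34) and 1.21 (SE 0.29). Oxct1, which starts ketone body use, fell by 0.80 (SE 0.22) on HFD. Ldha, the main lactate-forming enzyme, was at a mean of 737 CPM in WT CD and 641 CPM in HoipA-KO CD and was not called. The median log2 fold change of the 11 genes was -0.24 on CD and 0.35 on HFD. Over all 12 libraries 3 were higher and 2 lower on CD, and none of the 11 was called on HFD. Without HoipA-KO HFD replicate 1 the HFD median was -0.03, and Slc16a3, Bdh2 and Oxct1 were not called on HFD. In that setting 1 other gene of the list was called higher on HFD.

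Adora1 (ENSMUSG00000042429, chr1:134199223-134235431, minus strand) encodes the A1 receptor for adenosine, a strong brake on lipolysis, and its span overlaps Mybph on the other strand. It stood at 100.3, 85.5 and 69.0 CPM in WT CD, at 154, 126 and 122 CPM in WT HFD, at 22.7, 11.4 and 19.0 CPM in HoipA-KO CD and at 54.3, 9.62 and 17.5 CPM in HoipA-KO HFD. The groups did not overlap between genotypes on either diet, and HoipA-KO HFD replicate 1, which also held epididymal transcripts, was the highest HoipA-KO library. Its log2 fold change was -2.39 on CD (SE 0.58, adjusted p = 0.0110) and -2.30 on HFD (SE 0.54, adjusted p = 0.0300). The HFD value was -3.30 without HoipA-KO HFD replicate 1 and -1.90 (adjusted p = 0.0693) without HoipA-KO HFD replicate 2. With all 12 libraries the adjusted p was 0.0117 on CD and 0.0536 on HFD.

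Of 10 genes for adenosine supply and removal, 4 were higher and 1 was lower with CD (18.9% and 18.8% of all genes), and with HFD 2 were higher and 1 was lower (4.2% and 7.62% of all genes). Ada, which deaminates adenosine, rose by 2.60 (SE 0.26) on CD and 1.18 (SE 0.21) on HFD, and Slc29a1, an equilibrative nucleoside transporter, by 2.22 (SE 0.25) and 1.06 (SE 0.21). Entpd1, which degrades extracellular ATP toward adenosine, rose by 1.99 (SE 0.24) on CD, and Adk, which rephosphorylates adenosine, fell by 1.41 (SE 0.19) on CD and by 0.88 (SE 0.17) on HFD. Nt5e, which forms adenosine from AMP, was not called between genotypes, with 10.2, 75.2 and 22.8 CPM in WT CD, the highest value being in the library rich in epididymal transcripts. The HFD calls of Ada, Slc29a1 and Adk were lost with all 12 libraries, and the CD counts were again 4 and 1.

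Ptger3 (ENSMUSG00000040016, chr3:157566892-157645888, plus strand) encodes the EP3 receptor for prostaglandin E2, which lowers cAMP in adipocytes. It stood at 78.6, 36.4 and 22.6 CPM in WT CD, at 151, 99.5 and 78.6 CPM in WT HFD, at 26.5, 10.9 and 17.6 CPM in HoipA-KO CD and at 30.0, 14.5 and 21.7 CPM in HoipA-KO HFD. The genotypes were separate on HFD, whereas on CD the highest HoipA-KO library lay above WT CD replicate 3. Ptger3 fell by 1.64 on CD (SE 0.46, adjusted p = 0.0199) and by 2.31 on HFD (SE 0.44, adjusted p = 0.0152), and with all 12 libraries the CD value was -1.35 (adjusted p = 0.0578). Leaving out WT CD replicate 1 gave -0.98 on CD.

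Of 10 genes for prostaglandin E2 supply and removal, with CD 1 was higher and 1 lower (18.9% and 18.8% of all genes), and with HFD 1 was lower (7.62% of all genes). Pla2g16, the phospholipase of fat cells that releases arachidonic acid and is named Plaat3 in the table, fell by 2.18 (SE 0.38) on CD and by 2.21 (SE 0.36) on HFD, and the cytosolic phospholipase Pla2g4a rose by 2.21 (SE 0.44) on CD. Ptgs2, the inducible cyclooxygenase, was 402 CPM in HoipA-KO HFD replicate 1 and at most 1.68 CPM in the other 11 libraries, and was not called. That library also stood apart in its 1579 CPM of epididymal markers, its 1801 CPM of pericyte and smooth muscle markers (at most 634 CPM elsewhere) and its 91.5 CPM of neutrophil markers (at most 27.2 CPM elsewhere), whose part in the Ptgs2 level was not tested. WT CD replicate 2, which held the most epididymal transcripts, had Ptgs2 at 0.574 CPM. Without HoipA-KO HFD replicate 1, 5 of the 10 genes were lower and 2 higher on CD, and 2 were lower on HFD. Pla2g16 was still called lower on both diets with all 12 libraries, and 2 genes were then higher on CD.

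Ffar2 (ENSMUSG00000051314, chr7:30818348-30823775, minus strand) encodes a receptor for the short-chain fatty acids acetate and propionate that couples to inhibitory and Gq proteins. It stood at 42.1, 20.8 and 14.3 CPM in WT CD, at 44.7, 67.6 and 40.1 CPM in WT HFD, at 11.5, 9.86 and 13.1 CPM in HoipA-KO CD and at 15.6, 5.99 and 18.5 CPM in HoipA-KO HFD. The genotypes did not overlap on either diet, with the smallest gap between WT CD replicate 3 and HoipA-KO CD replicate 3. The log2 fold change was -1.45 on CD (SE 0.45, adjusted p = 0.0295) and -1.92 on HFD (SE 0.42, adjusted p = 0.0234), and with all 12 libraries the adjusted p was 0.0705 and 0.0589. On CD the value was -0.86 without WT CD replicate 1. With the replicate number as a block in the fit it was -1.48 on CD and not called (adjusted p = 0.0500037).

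Ffar4 (ENSMUSG00000054200, chr19:38097071-38114263, plus strand) encodes GPR120, a receptor for long-chain fatty acids of adipocytes and macrophages that signals through Gq and beta-arrestin. It stood at 33.0, 24.4 and 11.5 CPM in WT CD, at 13.4, 11.04 and 8.52 CPM in WT HFD, at 4.78, 3.99 and 6.43 CPM in HoipA-KO CD and at 2.93, 2.73 and 4.04 CPM in HoipA-KO HFD. All HoipA-KO libraries were below all WT libraries, and within WT the HFD libraries lay below WT CD replicates 1 and 2. Its log2 fold change was -2.50 on CD (SE 0.28, adjusted p = 0.000486) and -1.76 on HFD (SE 0.26, adjusted p = 0.00872), and both calls held under all 21 alternative settings.

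Of 8 genes for the signalling of fatty acid receptors, 3 were higher and 1 lower with CD (18.9% and 18.8% of all genes), and with HFD 2 were higher and 1 lower (4.2% and 7.62% of all genes). Gna11, a Gq family alpha subunit, fell by 1.36 (SE 0.17) on CD and by 0.61 (SE 0.15) on HFD, whereas Gnaq was not called. Arrb2, the beta-arrestin through which Ffar4 signals, rose by 2.18 (SE 0.31) on CD and 0.94 (SE 0.25) on HFD, opposite in direction to Ffar4 itself, and Tab1, the partner of beta-arrestin in that signal, by 0.69 (SE 0.16) and 0.54 (SE 0.14). Arrb1 rose by 1.10 (SE 0.22) on CD. The HFD calls of Gna11, Arrb2 and Tab1 were lost with all 12 libraries, and the CD counts were again 3 and 1. Gna11 and Tab1 were also not called on HFD without HoipA-KO HFD replicate 1, where 1 other gene of the list was lower.

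Sucnr1 (ENSMUSG00000027762, chr3:60081869-60087566, plus strand) encodes the succinate receptor, which inhibits lipolysis in adipocytes and is also present on macrophages. It stood at 112, 44.2 and 35.8 CPM in WT CD, at 101, 73.3 and 57.0 CPM in WT HFD, at 17.1, 13.6 and 16.4 CPM in HoipA-KO CD and at 16.5, 10.9 and 13.5 CPM in HoipA-KO HFD. The lowest WT library was above the highest HoipA-KO library on both diets, WT CD replicate 3 included. The log2 fold change was -2.31 on CD (SE 0.37, adjusted p = 0.00144) and -2.50 on HFD (SE 0.35, adjusted p = 0.00871), called under all 21 alternative settings on each diet, although the CD value was -1.50 without WT CD replicate 1.

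Of 10 genes for succinate handling, 5 were lower and 1 was higher on each diet, with medians of -0.53 on CD and -0.30 on HFD, where 18.8% of all genes were lower and 18.9% higher on CD and 7.62% and 4.2% on HFD. Suclg2, a subunit of succinyl-CoA ligase, fell by 1.47 (SE 0.12) on CD and by 0.51 (SE 0.11) on HFD, Slc25a10, the mitochondrial dicarboxylate carrier, by 1.24 (SE 0.31) and 1.38 (SE 0.29), and Sdha, the catalytic subunit of succinate dehydrogenase, by 0.96 (SE 0.19) and 0.61 (SE 0.17). Sucla2, another ligase subunit, fell by 0.66 (SE 0.16) on CD and by 0.78 (SE 0.14) on HFD. Slc13a3, a plasma membrane carrier of dicarboxylates, rose by 3.64 (SE 0.43) on CD and 1.22 (SE 0.33) on HFD. The other 3 subunits of succinate dehydrogenase, Sdhb, Sdhc and Sdhd, were not called on either diet over the 11 libraries. When all 12 libraries were used, 4 genes were lower and 1 higher on CD, without Slc25a10, and none of the 10 was called on HFD. Without WT CD replicate 2, 8 were lower on CD, and without HoipA-KO HFD replicate 1 Sdha and Slc13a3 were not called on HFD.

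Npr3 (ENSMUSG00000022206, chr15:11839896-11907287, minus strand) encodes the clearance receptor for natriuretic peptides and overlaps Gm5144 on the other strand. It stood at 1735, 445 and 499 CPM in WT CD, at 1663, 1401 and 1018 CPM in WT HFD, at 313, 357 and 302 CPM in HoipA-KO CD and at 390.0, 213 and 296 CPM in HoipA-KO HFD. The genotypes were separate on both diets, but on CD WT replicate 1 was far above the other 2. Npr3 fell by 1.75 on CD (SE 0.48, adjusted p = 0.0178) and by 2.18 on HFD (SE 0.45, adjusted p = 0.0202). Without WT CD replicate 1 the CD value was -0.47 (adjusted p = 0.317), and so this call rested on that library.

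Npr1 (ENSMUSG00000027931, chr3:90450591-90465866, minus strand) encodes the guanylyl cyclase receptor that raises cGMP when atrial or brain natriuretic peptide binds, and overlaps Gm16048 on the other strand. It stood at 76.9, 47.9 and 67.6 CPM in WT CD, at 77.0, 72.1 and 59.7 CPM in WT HFD, at 65.7, 39.6 and 68.5 CPM in HoipA-KO CD and at 62.0, 64.9 and 93.9 CPM in HoipA-KO HFD. The groups overlapped in every comparison. Its log2 fold change was -0.10 on CD (95% interval -0.76 to 0.55, adjusted p = 0.801) and 0.08 on HFD (-0.51 to 0.67, adjusted p = 0.851), and it was not called under any of the 21 alternative settings. The sign differed between settings. The ratio of Npr3 to Npr1 CPM within a library was 22.6, 9.29 and 7.38 in WT mice on CD and 21.6, 19.4 and 17.0 on HFD, and it was 4.76, 9.003 and 4.40 in HoipA-KO mice on CD and 6.29, 3.28 and 3.15 on HFD. On HFD the 2 genotypes were separate in this ratio, and on CD HoipA-KO CD replicate 2 lay between WT CD replicates 2 and 3.

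Of 12 genes of the cGMP pathway, 9 were tested, and with CD 1 was lower and 1 higher, while with HFD 1 was lower. Over all genes 18.8% were called lower and 18.9% higher on CD, and 7.62% and 4.2% on HFD. Mme, neprilysin, which degrades natriuretic peptides, fell by 3.24 (SE 0.50) on CD and by 2.19 (SE 0.46) on HFD, with 68.2, 324 and 44.0 CPM in WT CD replicates 1, 2 and 3. Its highest value was in the library rich in epididymal transcripts, and without that library the CD value was -1.71 (adjusted p = 0.00219). Vasp, a substrate of the cGMP-dependent kinase, rose by 0.54 (SE 0.17) on CD, and was not called without the same library (0.28, adjusted p = 0.173). The kinase genes Prkg1 and Prkg2 were not called. Mme on CD was the only call of the list with all 12 libraries, as Vasp on CD and Mme on HFD were lost, and without WT CD replicate 2 there were 2 lower and 0 higher on each diet. The ligand genes Nppa, Nppb and Nppc did not pass the filter, with means of 0.09 CPM or less in every group.

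The receptors above signal through shared components, of which 19 genes for inhibitory G proteins and the control of cAMP were examined. On CD 3 were lower and 8 higher, where 18.8% and 18.9% of all genes were, and on HFD 4 were lower and 1 higher, where 7.62% and 4.2% were. Gnai1, an inhibitory alpha subunit, fell by 2.01 (SE 0.26) on CD and by 1.99 (SE 0.25) on HFD, whereas Gnai2, which is abundant in immune cells, rose by 1.14 (SE 0.22) on CD. Pde3b, the insulin-activated phosphodiesterase of adipocytes, fell by 2.19 (SE 0.32) on CD and by 1.90 (SE 0.30) on HFD. Adcy6, a cyclase that forms cAMP, fell by 1.26 (SE 0.19) on CD and by 1.01 (SE 0.18) on HFD. The cyclase Adcy5 fell by 1.63 (SE 0.36) on HFD. Adcy3, another cyclase, rose by 2.61 (SE 0.49) on CD, Rgs2, which curbs G protein signals, by 2.59 (SE 0.46), and Gng2, a G protein gamma subunit, by 2.53 (SE 0.41). The median of the list was 0.63 on CD and 0.08 on HFD. With all 12 libraries 3 were lower and 12 higher on CD, and on HFD Gnai1 and Pde3b alone were called. Without HoipA-KO HFD replicate 1, 4 were lower and 5 higher on CD.

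Other receptors of these families did not all share the direction of the 8. Of 17 related receptors, 14 were tested, and on CD 7 were higher and 3 lower (18.9% and 18.8% of all genes), while on HFD 1 was higher and 2 were lower (4.2% and 7.62% of all genes). P2ry14, a receptor for UDP sugars, rose by 3.65 (SE 0.46) on CD and 1.57 (SE 0.35) on HFD, and Ptger2, a prostaglandin E2 receptor that raises cAMP, by 2.90 (SE 0.46) on CD. Adora3, another adenosine receptor, was at 0.286, 0.0851 and 3.02 CPM in WT CD and at 2.13, 2.41 and 1.44 CPM in HoipA-KO CD. It was called higher on CD over the 11 libraries, which leave out WT CD replicate 3, the highest of these, and had an adjusted p of 0.560 over all 12. Gpr84, a receptor for medium-chain fatty acids known from macrophages, was also called higher on CD. Its means were 0.076 CPM in WT CD, near the level of 3 counts, and 0.261 CPM in HoipA-KO CD. Over all 12 libraries its adjusted p was 0.118. Cnr1, the cannabinoid receptor, fell by 2.01 (SE 0.35) on CD and by 2.00 (SE 0.33) on HFD. Npr2, the receptor for C-type natriuretic peptide, fell by 1.41 (SE 0.33) on CD and by 1.06 (SE 0.30) on HFD. Ffar1, Ffar3 and Oxgr1 did not pass the filter. Over all 12 libraries 5 were higher and 2 lower on CD, and on HFD Cnr1 alone was called. Npr2 was also not called on HFD without HoipA-KO HFD replicate 1, while its CD call held there and over all 12 libraries.

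The adipocyte markers moved with the 8 receptors. Beside the marker counts that follow, 18.8% of all genes were called lower and 18.9% higher on CD, and 7.62% and 4.2% on HFD. On CD 8 of the 10 were lower (median -1.79) and on HFD 9 of the 10 (median -1.87), with Adipoq, which encodes adiponectin, at -2.64 and -2.83 and Lpl not called. All 9 macrophage markers rose on CD (median 3.75) and 3 of them on HFD (median 1.04), and 5 of 6 mast cell markers rose on CD and 2 on HFD. Of 6 endothelial markers, 2 were lower on CD and 3 on HFD, and of 6 pericyte and smooth muscle markers with CD 2 were lower and 1 higher and with HFD none was called. Of the remaining lists, 1 neutrophil marker of 7 tested and 1 T and NK cell marker of 6 rose on each diet, 2 of 6 stem and progenitor markers rose on CD, 1 of 8 epididymal markers was lower on CD, and none of 6 mesothelial and 4 B cell markers was called. With all 12 libraries 5 adipocyte markers were lower on HFD, and no macrophage, mast cell, endothelial or T and NK cell marker was called on HFD, while the 9 macrophage and 5 mast cell calls on CD were unchanged in number. Without HoipA-KO HFD replicate 1, 1 macrophage marker was higher and 1 endothelial marker lower on HFD. Without WT CD replicate 2, 5 macrophage markers were higher on HFD, and 4 endothelial markers were lower on CD. The part of these markers in the receptor results was not tested.

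Each receptor was therefore also expressed relative to the summed adipocyte markers, a ratio chosen after the levels had been seen and given with no test. Per 1000 CPM of the 10 markers, Sucnr1 was 1.98 to 2.24 in WT CD and 0.873 to 1.15 in HoipA-KO CD, and 1.75 to 2.54 in WT HFD and 0.854 to 1.23 in HoipA-KO HFD. Ffar4 was 0.624 to 1.09 in WT CD and 0.257 to 0.425 in HoipA-KO CD, and overlapped between genotypes on HFD. Adora1 was 1.90 to 4.32 in WT CD and 0.737 to 1.53 in HoipA-KO CD, and overlapped on HFD through HoipA-KO HFD replicate 1 at 4.06.

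In this ratio 5 of the 9 receptors (Hcar1, Hcar2, Adora1, Ffar4 and Sucnr1) were lower in every HoipA-KO library than in every WT library on CD, against 4.12% of 18074 genes, and 0 were higher, against 37.4%. On HFD 3 receptors (Ptger3, Sucnr1 and Npr3) were lower in every HoipA-KO library, against 1.45% of genes. Npr1 was higher in every HoipA-KO HFD library, at 4.63 to 6.19 against 1.81 to 1.94 in WT HFD, as were 80.5% of genes. The outcome depended on the denominator, because relative to Adipoq alone none of the 9 receptors was lower in every HoipA-KO library, while 7 were higher on CD (70.6% of genes) and 5 on HFD (93.5% of genes). Whether the receptors fell by more or by less than adipocyte transcripts therefore differed with the marker used. Lpl, not called between genotypes over the 11 libraries, was 4942 to 15024 CPM of the 15971 to 52877 CPM summed in WT CD. In HoipA-KO CD it was 6157 to 9268 CPM of 14850 to 15535 CPM. On HFD it was 11457 to 12821 CPM of 32537 to 39738 CPM in WT and 5500 to 7301 CPM of 12712 to 15174 CPM in HoipA-KO. The part of Lpl in the ratios was not tested.

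**Figure D4:**
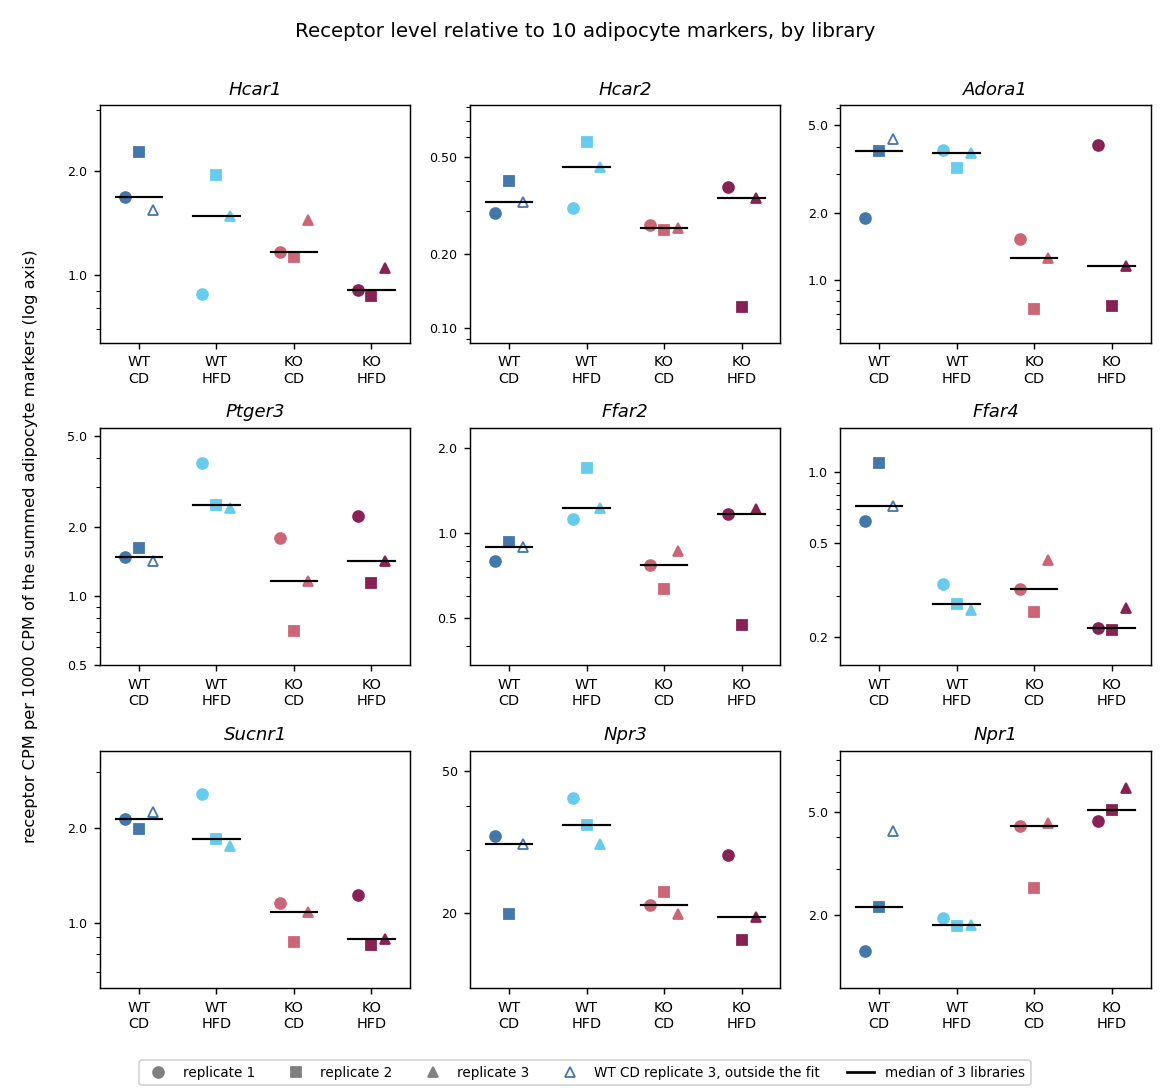
CPM of each receptor per 1000 CPM of the 10 summed adipocyte markers (log axis) in each of the 12 libraries, with bars at the group median and an open symbol for WT CD replicate 3. Sucnr1 is lower in all HoipA-KO libraries than in any WT library on both diets, whereas Ffar2 overlaps between genotypes and Npr1 is higher in HoipA-KO HFD than in WT HFD.

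Between diets a single receptor was called over the 11 libraries. In WT mice Ffar4 was lower on HFD than on CD, at -1.38 on the log2 scale (SE 0.28, adjusted p = 0.0131), where 14.8% of genes were called in either direction. With all 12 libraries this was -1.08 (adjusted p = 0.0771), with WT CD replicate 3 at 11.5 CPM among the WT HFD libraries, and with WT CD replicate 3 in place of replicate 2 it was -1.03 (adjusted p = 0.129). With the 5 libraries of these 2 groups alone in the fit it was -1.47 (adjusted p = 0.0861), and no gene was called. Ptger3 and Adora1 were higher in all 3 WT HFD libraries than in all 3 WT CD libraries, where 24.6% of genes were higher in every library over the 11, but were not called, and for Ptger3 the nearest libraries of the 2 groups were both at 78.6 CPM. Their log2 fold changes were 0.94 (SE 0.48, adjusted p = 0.207) for Ptger3 and 0.53 (SE 0.59, adjusted p = 0.577) for Adora1. With the replicate number as a block in the fit, Ptger3 was called higher (1.07, adjusted p = 0.0337). Same-numbered WT CD and WT HFD libraries deviated from their group means with r = -0.010 for replicate 1 and -0.015 for replicate 2. WT CD replicates 1 and 2 mirror each other in the fit, so these values do not settle whether the numbers pair libraries. Without WT CD replicate 1, Npr3 was called higher on HFD at 1.63 (adjusted p = 0.0161), against 0.32 (SE 0.49, adjusted p = 0.690) over the 11 libraries. The adipocyte markers gave 0 calls in this comparison (median -0.32), while all 9 macrophage markers (median 2.71) and 5 of 6 mast cell markers (median 4.196) rose. With all 12 libraries the adipocyte median was -0.044, and Lep, which encodes leptin, was called higher (1.82, adjusted p = 0.0428).

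In HoipA-KO mice none of the 9 receptors was called between diets by edgeR's quasi-likelihood test, and neither was any other gene (0% of 18427). At an unadjusted p under 0.05 there were 415 genes, 1 of the 9 receptors among them, and DESeq2 called 7 genes and none of the receptors. That receptor was Ffar4, at -0.65 (95% interval -1.22 to -0.07), and Hcar1 was lower in all 3 HoipA-KO HFD libraries than in all 3 HoipA-KO CD libraries, as were 2.47% of genes, at -0.53 (-1.22 to 0.15). The test of the difference between the genotype effects on the 2 diets called none of the 9 receptors, where 3.91% of genes were called. Its values ran from -0.67 for Ptger3 (95% interval -2.07 to 0.73) to 0.74 for Ffar4 (-0.11 to 1.58). Differences between diets within the interval of a receptor remain possible, and the smallest detectable difference was not computed. The test depended on single libraries: without WT CD replicate 1 it called 3668 genes, Npr3 among them at -1.73 (adjusted p = 0.0331), and without each of 7 other libraries it called 1 to 4 genes and no receptor, against 721. Over the 11 libraries the receptors gave 0 calls at an unadjusted p under 0.05 in this test, and DESeq2 gave 0.

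Divided by the length of their joined exons (from 1401 bases for Ffar4 to 9389 for Npr3, GENCODE M21), Npr3 had the highest level in all 4 groups, with median CPM per kilobase of 53.1 on CD and 149 on HFD in WT mice and of 33.3 and 31.5 in HoipA-KO mice. In WT CD each receptor overlapped its neighbour in the order of levels. In WT HFD Npr3 was followed by Sucnr1 at 44.7 and then by Adora1 at 21.9, with no overlap between these 3, and from Adora1 through Ptger3, Ffar2 and Npr1 to Hcar1 (14.7) each overlapped the next. Hcar1 did not overlap Ffar4 (7.88), which followed it. Npr1, sixth of the 9 in each WT group at 14.1 and 15.1 CPM per kilobase, was next after Npr3 in both HoipA-KO groups at 13.7 and 13.6. Sucnr1, next after Npr3 in both WT groups, followed Npr1 in the HoipA-KO groups at 10.00 and 8.21, overlapping it on CD and not on HFD. Hcar2 was the lowest in 3 groups and Ffar4 in HoipA-KO HFD, where these neighbours overlapped. The lengths assume that all annotated exons are used.

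The 8 receptors that fell also varied together over the 12 libraries, which include both genotypes and diets, so that the group differences enter the correlations. Pearson's r of log2(CPM + 1) was highest between Hcar2 and Ffar2, at 0.982, and lowest among the 8 between Ptger3 and Ffar4, at 0.627, whereas Npr1 correlated with the other 8 at 0.0726 to 0.367. Among genes with a mean of at least 10 CPM, the 3 most like Sucnr1 were Fry, Prxl2a and Fzd4 (r = 0.994, 0.993 and 0.993), those most like Npr3 were Prr32, Tenm4 and Cav1 (0.992, 0.989 and 0.988), and those most like Ffar4 were Echdc3, Pfkfb1 and Ivd (0.989, 0.986 and 0.985). Cav1 encodes the main protein of caveolae and Ivd an enzyme of leucine breakdown. The genes most like Ptger3 were Trarg1, Mfng and Prkce (0.981, 0.977 and 0.976), and those most like Adora1 were Itga1, Hacd2 and A530016L24Rik (0.969, 0.969 and 0.968). For Ffar2 they were C1rl, Rflnb and Dgat2 (0.977, 0.975 and 0.972), for Hcar2 Ffar2, Clstn3 and Rflnb (0.982, 0.972 and 0.970), and for Hcar1 Cpt2, Coq9 and Mccc1 (0.961, 0.959 and 0.958). Dgat2 catalyses the last step of triglyceride synthesis and Cpt2 a step of mitochondrial fatty acid import. Npr1 had a different set, Sema4c, Cyp27a1 and Podxl, at lower values (0.836, 0.793 and 0.783).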

How the data were processed

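The authors trimmed reads with Trim Galore 0.6.7, aligned them with STAR 2.7.10a and quantified genes with Salmon 1.5.2. Per the labels the build is GRCm38. The study's text names a human assembly, but all gene identifiers are of the mouse. The deposited values are estimated counts per gene, of which 11.5% were not whole, and they were rounded to whole numbers here. The strand setting of the counting is not given in the sources used here. The deposited files also hold the authors' own DESeq2 comparisons, with fold changes and p-values, which were not used, and a table of protein-coding genes.

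Counts were tested in R 4.3.3 with edgeR 4.0.16 (quasi-likelihood test, TMM, filterByExpr with a minimum of 10 counts, 1 model of the 4 groups, Benjamini-Hochberg adjustment over 18427 genes at 0.05) on 11 libraries, with WT CD replicate 3 left out. SE is the absolute log2 fold change divided by the square root of F, and 95% intervals use the test's degrees of freedom. CPM use TMM factors over all 12 libraries. Depth limits low genes, since 3 counts correspond to 0.0534 to 0.0987 CPM. Each library pools 3 mice, so the tests measure the spread between pools. The test was checked before use on counts simulated from its own model, with genes changed in HoipA-KO CD alone and no outlying library. That check does not cover the libraries that stood apart here.

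The receptors, the 8 gene lists, the 11 marker lists and the motifs were chosen with earlier results of these data known. Genes were named by a fixed rule: the 9 receptors, up to 4 called members with the largest change per list and comparison together with genes whose product makes a ligand or carries a signal of a receptor described, and for each receptor the 3 most correlated genes. Pla2g16 was matched to the table by gene identifier. The values of 1 gene counted in a list are not reported here. Promoter sequences are from RefSeq (GRCm38.p6), and gene coordinates and exon lengths from GENCODE M21. Alternatives were all 12 libraries, DESeq2 1.42.0 size factors, library size alone, no filter, at least 10 counts in every library, the protein-coding table, the DESeq2 Wald test, a replicate block, only the 2 groups compared, each library left out, and, chosen after seeing the data, WT CD replicate 3 in place of replicate 2 and, for the lists, WT CD replicate 2 or HoipA-KO HFD replicate 1 left out.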

Additional observations from a re-analysis of the deposited data

How the results depend on the processing

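Over 21 alternative settings of 5 comparisons, 936 fold changes of single receptors were recomputed: 849 kept their direction and side of the threshold, 45 lost a call, 3 gained 1 and 39 changed sign. In the genotype comparisons only Npr1 changed sign. For each value below that changed, the cause was not tested. With all 12 libraries the genotype comparisons called 5 receptors on each diet and 503 genes on HFD, and the diet comparison in WT called 0 receptors. With WT CD replicate 3 in place of replicate 2, chosen after seeing the data, these counts were 5 on each diet, 672 and 0, with 326 genes for the interaction. The DESeq2 Wald test called 4410 genes on HFD, 4551 between diets in WT, 7 in HoipA-KO and 2350 for the interaction. With only the 2 groups compared, edgeR called 4208 genes and 6 receptors on CD, without Ptger3 (adjusted p = 0.0542) and Npr3 (0.0656), and called 0 receptors and 0 genes between diets in WT. Library size alone gave 1133 genes lower and 1279 higher on HFD (against 1405 and 774), 677 lower and 2108 higher between diets in WT (against 1008 and 1723), and moved the median of all genes by 0.10 between diets in HoipA-KO.

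Same-numbered libraries deviated from their group means with r from -0.37 to 0.52, over 0.1 in 6 of 15 pairs. Differently numbered libraries of different groups gave r from -0.53 to 0.43, over 0.1 in 8 of 30 pairs. WT CD held replicates 1 and 2 in the fit, whose deviations mirror each other, so its pairs carry little information. Taken over all groups, these values do not settle whether the numbers pair the libraries. Between HoipA-KO CD and HoipA-KO HFD all same-numbered pairs were over 0.1, at 0.155, 0.515 and 0.285 for replicates 1, 2 and 3. In that comparison the replicate block called no receptor. With the replicate block 7 receptors were called on CD (5893 genes), 8 on HFD (2561 genes), 2 between diets in WT (1502 genes), Ffar4 and Ptger3 (1.07, adjusted p = 0.0337), and 377 genes for the interaction. Under the block Sucnr1 between diets in WT was 0.12, Hcar2 in HoipA-KO -0.053 and Adora1 in the interaction -0.15.

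Other signs turned as follows. Between diets in WT, Sucnr1 was 0.26 with all 12 libraries, 0.068 with library size alone and 0.052 with replicate 3 in place of 2, where Npr1 was -0.054. Between diets in HoipA-KO, Npr3 was 0.023 with library size alone and Hcar2 -0.00413 with no filter. In the interaction, Adora1 was -0.012 with all 12 libraries and -0.025 with replicate 3 in place of 2.

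Leaving out each library in turn called 4 to 8 receptors on CD, 3 to 8 on HFD, 1 to 2 between diets in WT and 0 to 1 in the interaction (Npr3, without WT CD replicate 1). The genes called were 5082 to 7723, 279 to 3797, 1045 to 5985 and 1 to 3668, and 0 between diets in HoipA-KO. Between genotypes the fold change of Npr1 lay between -0.40 and 0.27 with CD and between -0.13 and 0.19 with HFD. Between diets in WT, Hcar1 ranged from -0.75 to 0.10, Npr1 from -0.14 to 0.56, Npr3 from -0.35 to 1.63 and Sucnr1 from -0.54 to 0.82. In HoipA-KO, Hcar2 ranged from -0.23 to 0.39, Adora1 from -0.37 to 1.02, Ptger3 from -0.011 to 0.63, Ffar2 from -0.084 to 0.57 and Npr3 from -0.33 to 0.081. In the interaction, Hcar1 ranged from -0.63 to 0.21, Adora1 from -0.82 to 0.49, Npr1 from -0.21 to 0.49, Npr3 from -1.73 to 0.23 and Sucnr1 from -1.02 to 0.33. Without a WT CD library that group holds 1 library, assumed to vary like the others. Depth limits only low genes such as Gpr84.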
